A study of Mus musculus with 4 samples.

Results

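Matrix metalloproteinases (Mmp genes), ADAMTS proteases (Adamts genes) and the tissue inhibitors of metalloproteinases (Timp genes) were followed in cells labelled as endothelium from collecting lymphatic vessels that drained a tumour. Members were all probe sets with exactly 1 platform gene symbol of these 3 families, and the probe set with the highest mean signal over the 4 arrays stood for its gene. This gave 37 genes of the 18193 measured, read by 70 probe sets: 18 Mmp, 15 Adamts and 4 Timp genes. The VEGFD group consisted of 2 arrays of vessels from mice whose 293EBNA tumours carried a vector with VEGFD, and the Apex group of 2 arrays from mice whose 293EBNA tumours carried the empty APEX vector. 293EBNA is a line derived from human embryonic kidney cells, so both groups shared a human flank xenograft, grown to 2000 mm3. Both also shared Patent Blue V injected into the tumour, microdissection of the stained vessels and magnetic sorting of endothelial cells. Mouse strain, age and the number of mice behind each array are not given in the labels used here. The extraction protocol names lymph node cells where all other labels name collecting lymphatic ones. The titles call the arrays biological replicates.

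These enzymes are zinc-dependent proteases that cut the proteins and proteoglycans of the extracellular matrix, and most are made as inactive precursors whose prodomain must be removed. TIMP proteins bind the active site of mature metalloproteinases and block it, and TIMP2 also works together with the membrane-bound MMP14 to activate MMP2. ADAMTS proteases trim procollagens and cut large proteoglycans such as versican and aggrecan. In vessel walls this system remodels the basement membrane and the surrounding matrix during sprouting, dilation and repair.

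The arrays did not all match the endothelial label. Pecam1, Tie1 and Erg, genes that define endothelium, were above the signal used to filter dim probe sets (25.3) in Apex replicate 2 alone. The summed signal of 10 pan-endothelial markers was 363 and 195 in VEGFD replicates 1 and 2, against 339 and 3579.9 in Apex replicates 1 and 2. Emcn alone gave 2670.4 of the sum in Apex replicate 2. The receptor genes Kdr and Tek were not highest there: Kdr had 90.8 and 55.4 in VEGFD arrays, against 78.8 and 75.7 in Apex arrays. The markers were thus uneven, with 5 and 2 of 10 above the filter signal in VEGFD replicates 1 and 2, against 5 and 10 in Apex replicates 1 and 2. Of 7 lymphatic markers, Pdpn, Flt4 and Nrp2 were above the filter signal on every array. The list summed to 1501 and 2060.2 in VEGFD arrays, against 1204 and 2336 in Apex arrays. Pdpn gave most of each sum, with 1237 and 1715 in VEGFD arrays, against 963 and 1622 in Apex arrays. Lyve1 (151) and Mmrn1 (38.9) were above the filter signal in Apex replicate 2 alone, and Reln in the VEGFD arrays alone (27.3 and 34.1). Prox1, the transcription factor gene of lymphatic identity, was at most 11.6 on any array by its brightest probe set. The summed signal of 8 fibroblast markers was 17089 and 17809.5 in VEGFD arrays, against 16709 and 15193 in Apex arrays. Smooth muscle and pericyte markers, 8 genes, summed to 8735 and 16179 in VEGFD arrays, against 7194 and 8639.8 in Apex arrays. Of the fibroblast markers, 6 of 8 were above the filter signal on every array, and the smooth muscle sum, carried mostly by Acta2 and Tagln, was highest in VEGFD replicate 2. In bulk samples such as these, fewer cells of a type and less RNA per cell cannot be told apart. Arrays are therefore called by their labels, and results that rest on Apex replicate 2 or on VEGFD replicate 2 are given with and without it.

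Of the 37 members, 23 had a mean above the filter and were tested, 62.2% of the family against 64.2% of all genes, and 14 stayed near background. The filter was set at the median over probe sets other than controls, and no detection calls were used, so a dim signal means only that it lay in the lower part of the array's range. All 4 Timp genes and all 4 measured membrane-type Mmp genes passed it, as did 9 of 15 Adamts and 10 of 18 Mmp genes. Mmp15 and Mmp25, also of the membrane type, were not among the members. VEGFD and Apex arrays were compared on the log2(signal + 16) scale, which understates the change of dim genes, with limma across all 11677 genes past the filter. Log2 changes below are VEGFD minus Apex with the standard error (SE) of that fit, n = 2 and 2.

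Timp4 had less and Timp1 more signal in VEGFD arrays, Adamts6 likewise had more and Adamts15, Adamts16 and Mmp19 less signal in VEGFD arrays, and Mmp2 and Mmp14 differed little. None of these differences passed the test. Limma called 0 of the 23 tested members and 0 of all 11677 genes (0% called) at an adjusted p of 0.05, and the members' adjusted p ran from 0.511 to 0.993. At an unadjusted p under 0.05 there were 5 members (21.7%), 2 with more and 3 with less signal in VEGFD arrays, beside 5.7% of all genes. Both VEGFD arrays lay above both Apex arrays in 4 members, beside 16.6% of all genes, and below both in 5 members, beside 21.8% of all genes. Together these were 9 of 23 members (39.1%), close to the background of 38.5%. At least 2-fold apart without overlap were 1 member with more signal (background 1.09%) and 2 with less (2.79%), 13.04% of members together beside 3.88% of all genes. The median log2 change was 0.01 over the tested members and -0.04 over all tested genes. An exact permutation test of 2 arrays against 2 cannot go below p = 0.33. With arrays centred on their medians the median of all genes was 0.09, and genes 2-fold apart without overlap split into 192 higher and 239 lower in place of 127 higher and 326 lower. With a single VEGFD array there is no spread within that group, so a pass in such a fit is no support for a gene.

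**Figure D1:**
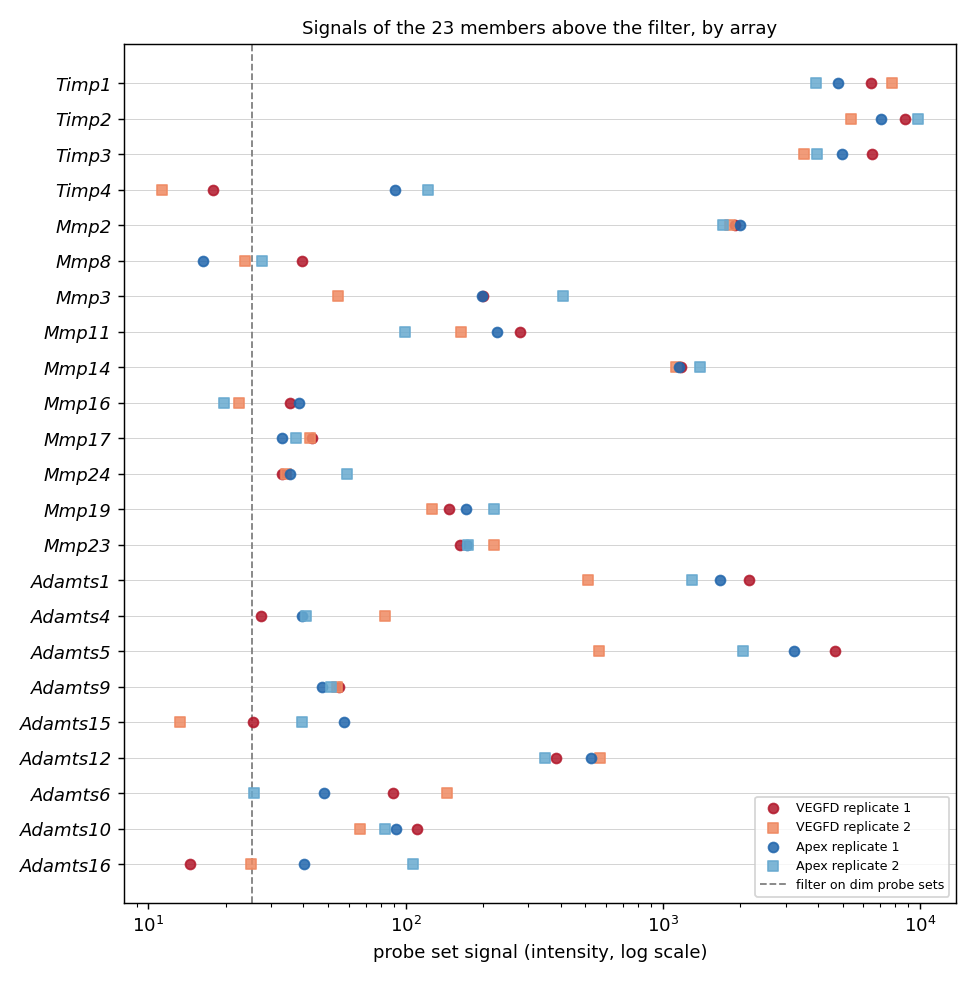
Probe set signal (log scale) of the 23 members above the filter, 1 row a gene and 1 point an array, with VEGFD arrays in red shades, Apex arrays in blue shades and the filter signal of 25.3 dashed. Timp1, Adamts6, Adamts9 and Mmp17 have both VEGFD points to the right of both Apex points, narrowly for Adamts9 and Mmp17. Timp4, Adamts15, Adamts16, Mmp19 and Mmp24 have them to the left, narrowly for Mmp24. VEGFD replicate 2 lies far below the other arrays for Adamts1, Adamts5 and Mmp3. Signals of different genes come from different probes and are not comparable.

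Among the genes classed here as collagenases, a group named for cutting fibrillar collagen, Mmp13, Mmp1a and Mmp1b were near background. Mmp8, the neutrophil collagenase, was just above the filter. Mmp8 had signals of 39.4 and 23.8 in VEGFD arrays, against 16.4 and 27.6 in Apex arrays, and the groups overlapped. Mmp13 had at most 13.4, Mmp1a at most 19.9 and Mmp1b at most 9.10 on any array, by the probe set that stands for the gene, as for every such maximum below.

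The gelatinase gene Mmp2, whose product degrades denatured collagen and collagen IV, was close to even over the arrays. Its signals were 1906 and 1819 in VEGFD arrays, against 2001 and 1706 in Apex arrays, with a log2 change of 0.01 ± 0.21 (limma adjusted p = 0.991). A further probe set of Mmp2 gave a log2 change of 0.09. The sign of the Mmp2 change turned with quantile normalization (-0.0056), which at this size carries no direction. Mmp9, the other gelatinase gene and a product of neutrophils and macrophages, had at most 14.3 on any array.

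Stromelysins 1 and 2 cut proteoglycans, fibronectin and laminin and activate other Mmp precursors. Mmp3, stromelysin 1, had signals of 199.6 and 54.5 in VEGFD arrays, against 198.5 and 410.3 in Apex arrays. VEGFD replicate 1 and Apex replicate 1 were level, and the difference lay between the low VEGFD replicate 2 and the high Apex replicate 2. The log2 change was -1.29 ± 0.62 (adjusted p = 0.823), and it was -0.49 without VEGFD replicate 2 and -0.80 without Apex replicate 2. Mmp11, stromelysin 3, a gene known from tumour stroma, had 277 and 165 in VEGFD arrays, against 226 and 99.2 in Apex arrays, and the groups overlapped. Its log2 change was 0.46 ± 0.45, and -0.073 with Apex replicate 2 left out. Mmp10, stromelysin 2, had 15.5 and 30.6 in VEGFD arrays, against 3.12 and 35.3 in Apex arrays, and its mean lay below the filter.

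Most of the near-background Mmp genes are neighbours. Mmp13, Mmp12, Mmp1b, Mmp3, Mmp1a, Mmp10, Mmp8, Mmp20 and Mmp7 belong to an unbroken run of 10 protein-coding Mmp genes on chromosome 9, of which 9 were measured. Of these 9, 7 stayed below the filter, and Mmp3 and Mmp8 passed it. Of the 28 members elsewhere, 7 stayed below it. Mmp12, the macrophage elastase, had at most 8.16, Mmp20, the enamel protease, at most 17.8, and Mmp7, matrilysin, at most 9.19 on any array.

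Mmp promoters of this run are known for AP-1 sites, which bind Fos and Jun proteins, so the upstream sequences of RefSeq (GRCm38.p6) were searched for TGACTCA and its reverse complement TGAGTCA. The 250 bases before the start held a match in 7 of the 9 genes of the run, in 0 of the 14 other members with a sequence, and in 4.46% of all 32851 such windows. Of 3 other motifs searched on both strands, TATAAA was found in 7 genes of the run, 1 of the 14 others and 12.4% of windows. GGGCGG was found in 0 genes of the run, 11 of the 14 others and 32.7% of windows, and AGGAAG in 6, 5 and 29.5%. None of the 3 overlapped an AP-1 match in a member. The run thus held AP-1 and TATAAA letters where the other members mostly held GGGCGG, with the motifs chosen for this description and no test made. Mmp3, the single gene of the run well above the filter, is shown first, followed by the 6 near-background genes with a match. The match is in capitals, and all sequences run 5′ to 3′ on the gene's strand.
Mmp3, chr9:7445750-7445809, plus strand: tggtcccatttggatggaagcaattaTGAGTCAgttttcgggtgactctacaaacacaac
Mmp13, chr9:7272453-7272512, plus strand: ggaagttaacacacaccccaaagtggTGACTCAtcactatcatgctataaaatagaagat
Mmp12, chr9:7347304-7347363, plus strand: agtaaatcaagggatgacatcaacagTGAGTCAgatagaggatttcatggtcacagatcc
Mmp1b, chr9:7388086-7388145, minus strand: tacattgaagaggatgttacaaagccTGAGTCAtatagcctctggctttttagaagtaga
Mmp1a, chr9:7464042-7464101, plus strand: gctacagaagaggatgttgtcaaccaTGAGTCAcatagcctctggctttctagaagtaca
Mmp10, chr9:7502253-7502312, plus strand: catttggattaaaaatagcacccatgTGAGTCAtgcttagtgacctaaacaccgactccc
Mmp7, chr9:7692001-7692060, plus strand: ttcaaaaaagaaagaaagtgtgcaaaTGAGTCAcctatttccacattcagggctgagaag
The first base of the match lay between 35 (Mmp13) and 93 (Mmp1b) bases before the start. The same 7 letters thus stand before Mmp3 and before the 6 genes near background. A match describes the letters and is not evidence of a bound site.

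**Figure D2:**
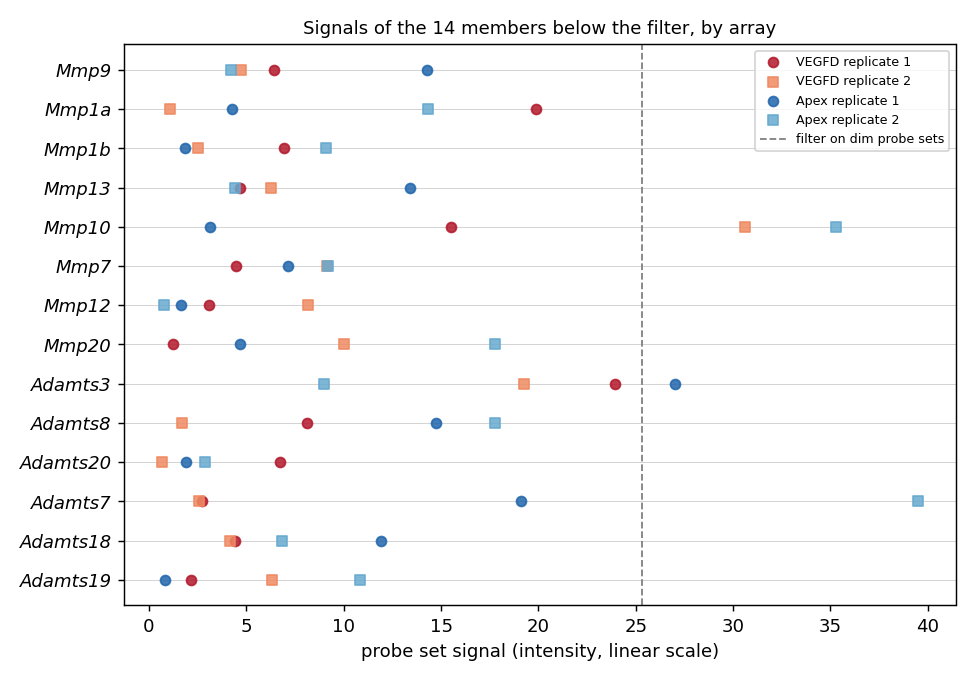
Probe set signal (linear scale) of the 14 members below the filter, 1 row a gene and 1 point an array, VEGFD arrays in red shades and Apex arrays in blue shades, with the filter signal of 25.3 dashed. Single points pass the line for Adamts3 and Adamts7, both replicate 2 arrays pass it for Mmp10, and the other 11 genes stay below it on every array.

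The membrane-type Mmp genes encode proteases anchored at the cell surface. Mmp14, the activator of MMP2, had signals of 1177 and 1126 in VEGFD arrays, against 1159 and 1395 in Apex arrays. The groups overlapped, with a log2 change of -0.14 ± 0.22 (adjusted p = 0.904). Its other probe sets above the filter gave 0.34 and -0.18, so the direction depends on the probe set. Mmp17 had 43.4 and 42.6 in VEGFD arrays, against 33.0 and 37.6 in Apex arrays, with a log2 change of 0.20 ± 0.27. Mmp24 had 33.1 and 34.3 in VEGFD arrays, against 35.5 and 59.4 in Apex arrays. Its log2 change was -0.33 ± 0.31, and -0.05 with Apex replicate 2 left out. Mmp16 had 35.5 and 22.5 in VEGFD arrays, against 38.4 and 19.8 in Apex arrays, and so split by replicate number and not by group.

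Of the remaining Mmp genes, Mmp19, which cuts basement membrane proteins, was lower in both VEGFD arrays by both of its probe sets. The brighter one had 147 and 127 in VEGFD arrays, against 171 and 221 in Apex arrays, with a log2 change of -0.47 ± 0.26 (adjusted p = 0.825). The dimmer one had 59.3 and 73.3 in VEGFD arrays, against 100.7 and 176 in Apex arrays, a log2 change of -0.87. Without Apex replicate 2 the change of the brighter probe set was -0.29. Mmp23 had 163 and 220.0 in VEGFD arrays, against 173 and 175 in Apex arrays, and the groups overlapped.

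**Figure D3:**
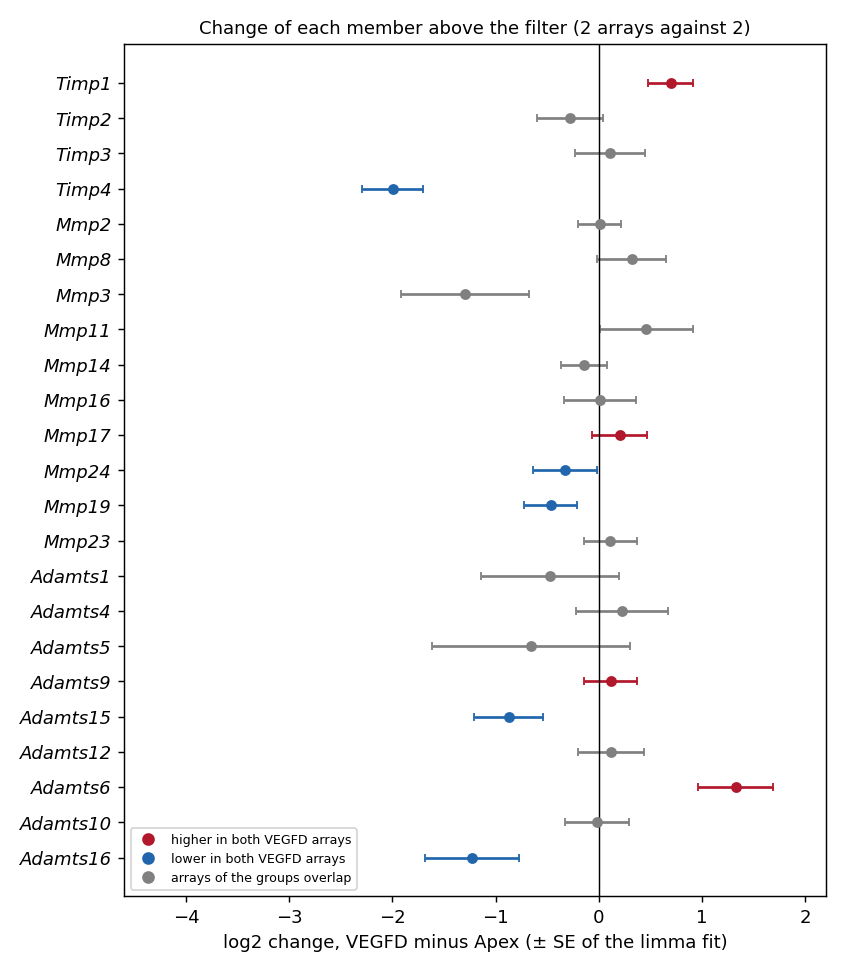
Log2 change (VEGFD minus Apex) of the 23 members above the filter, with bars for the SE of the limma fit, red where both VEGFD arrays lay above both Apex arrays, blue where both lay below, and grey where the groups overlapped. Timp4 lies farthest to the left at -2.00 and Adamts6 farthest to the right at 1.33, and no member passed the adjusted threshold.

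Of the 5 tested proteoglycan-cleaving Adamts genes, Adamts1, Adamts4 and Adamts5 overlapped between the groups and differed more between the VEGFD arrays than between the group means, while Adamts15 and Adamts9 did not overlap. Adamts5, which encodes the main aggrecan-cleaving enzyme, had signals of 4657 and 563 in VEGFD arrays, against 3235 and 2047 in Apex arrays. VEGFD replicate 1 was the highest of the 4 arrays and VEGFD replicate 2 the lowest. The VEGFD replicates were 3.01 apart on the log2 scale, a gap that 0.48% of all tested genes reached. All 3 Adamts5 probe sets above the filter ran in the same order, with gaps of 3.01, 2.81 and 2.67. Adamts1, which cuts versican and lies next to Adamts5 with 0 protein-coding genes between them, had 2164 and 513 in VEGFD arrays, against 1674 and 1295 in Apex arrays. Again VEGFD replicate 1 was highest and VEGFD replicate 2 lowest, with a gap of 2.04 that 2.34% of all tested genes reached.

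On all 4 arrays the log2 change was -0.66 ± 0.96 for Adamts5 (adjusted p = 0.896) and -0.47 ± 0.67 for Adamts1 (adjusted p = 0.890). Without VEGFD replicate 2 the values were 0.85 for Adamts5 and 0.55 for Adamts1. Without VEGFD replicate 1 they were -2.16 for Adamts5 (adjusted p = 0.0246) and -1.49 for Adamts1 (adjusted p = 0.040). The direction therefore depends on which VEGFD array is used. VEGFD replicate 2 was also the array with the highest smooth muscle and pericyte sum, given above, and the part of this in the Adamts values was not tested. It was the lowest array for 43.5% of tested members, beside 35.5% of all tested genes.

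Adamts15, another proteoglycan-cleaving enzyme gene, had 25.5 and 13.3 in VEGFD arrays, against 57.5 and 39.5 in Apex arrays. VEGFD replicate 1 was at the filter signal, VEGFD replicate 2 below it and both Apex arrays above it, with a log2 change of -0.87 ± 0.33 (adjusted p = 0.823) that was -0.43 with a pseudocount of 64. Adamts4 had 27.5 and 83.0 in VEGFD arrays, against 39.4 and 41.0 in Apex arrays, with the VEGFD arrays on either side of the Apex ones. Adamts9 had 55.3 and 54.3 in VEGFD arrays, against 47.2 and 51.4 in Apex arrays, a log2 change of 0.12 ± 0.26, and its next probe set gave -0.14. Adamts8 had at most 17.8 and Adamts20 at most 6.75 on any array.

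Adamts6 was the member with the largest excess in VEGFD arrays. Its signals were 89.4 and 144.7 in VEGFD arrays, against 48.0 and 25.8 in Apex arrays, and the groups did not overlap. The log2 change was 1.33 ± 0.36 (adjusted p = 0.823), and it ran from 1.02 to 1.64 with any 1 array left out. It was 0.84 with a pseudocount of 64 and 0.82 with averaged probe sets, and the other Adamts6 probe set, below the filter, had a log2 change of 0.30 with overlapping groups. Adamts16 went the other way, with 14.5 and 25.0 in VEGFD arrays, against 40.1 and 107 in Apex arrays. Its log2 change of -1.23 ± 0.45 (adjusted p = 0.823) was -0.66 without Apex replicate 2, the array with the high endothelial sum, and -0.67 with a pseudocount of 64.

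Adamts12, which cuts the cartilage protein COMP, had 385 and 568 in VEGFD arrays, against 526 and 349 in Apex arrays, and the groups overlapped. Adamts7, its relative, was 2.71 and 2.58 in VEGFD arrays, against 19.1 and 39.5 in Apex arrays, and lay below the filter. Adamts10, known for its part in microfibril biology, had 110.2 and 66.5 in VEGFD arrays, against 91.6 and 82.8 in Apex arrays, with a log2 change of -0.02 ± 0.31. Adamts3, a procollagen-processing enzyme gene, had 23.9 and 19.2 in VEGFD arrays, against 27.0 and 9.0 in Apex arrays. Adamts18 had at most 11.9 and Adamts19 at most 10.9 on any array.

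The 4 inhibitor genes did not share a direction. Timp4 had the smallest p of all members. Its signals were 17.9 and 11.3 in VEGFD arrays, against 90.8 and 122 in Apex arrays, so both VEGFD arrays were below the filter signal and both Apex arrays above it. The log2 change of Timp4 was -2.00 ± 0.30 (limma adjusted p = 0.511, unadjusted p = 0.000867). The dimmer Timp4 probe set had 20.3 and 23.02 in VEGFD arrays, against 37.9 and 46.3 in Apex arrays, a log2 change of -0.62 with no overlap either. With any 1 array left out the brighter probe set gave -2.19 to -1.81, and it passed without VEGFD replicate 1 (adjusted p = 0.0321). With a pseudocount of 64 the change was -1.11, and with a pseudocount of 1 it was -2.80.

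Timp4 is known for strong expression in fat and heart. The summed signal of 5 adipocyte markers was 1118 and 1079.7 in VEGFD arrays, against 1849 and 4239 in Apex arrays. Of these markers, Cidec and Lep were below the filter signal on every array, and Fabp4 alone was above it on every array. Adipoq, the gene of the fat hormone adiponectin, had 12.7 and 12.5 in VEGFD arrays, against 38.3 and 144.6 in Apex arrays. The sum and Adipoq were thus lower in both VEGFD arrays. Fabp4 gave most of the sum on every array, with 1098 and 1047 in VEGFD arrays, against 1741 and 4073 in Apex arrays. The sum is therefore close to a reading of this gene, which was highest in Apex replicate 2, the array with the high endothelial sum. Retn did not follow Adipoq, with 4.43 and 9.79 in VEGFD arrays, against 47.7 and 2.53 in Apex arrays. The summed signals of 7 keratinocyte and epithelial markers were 237 and 150.1 in VEGFD arrays, against 393 and 499 in Apex arrays. Of these markers, Krt14 and Cdh1 were below the filter signal on every array. Dsp, Epcam and Krt5 were lower in both VEGFD arrays, with log2 changes of -2.24, -0.93 and -0.85. Dsp differed most, with a mean signal of 33.4 in VEGFD arrays, against 190.2 in Apex arrays. Krt8 went the other way (0.48) with overlapping groups. Krt18 (-0.67) also overlapped and was highest in Apex replicate 2 (122.6). The 8 macrophage and neutrophil markers summed to 808 and 762 in VEGFD arrays, against 1196 and 1089 in Apex arrays, and 3 of them, Itgam, Ptprc and S100a9, were below the filter signal on every array. S100a8, a neutrophil gene, had 283 and 71.4 in VEGFD arrays, against 529 and 477 in Apex arrays. It was the only tested gene of this list whose groups did not overlap. Csf1r, a macrophage gene, had 335 and 558 in VEGFD arrays, against 503 and 472 in Apex arrays, and its groups overlapped. The macrophage genes Cd68 and Adgre1 had log2 changes of 0.24 and 0.23 with overlapping groups. All 3 sums were lower in both VEGFD arrays although not all of their genes were. In the macrophage and neutrophil list S100a8 alone was lower in both, so that sum shows no shared direction of its genes. The part of the 3 sums in the Timp4 difference was not tested.

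Timp1, an inhibitor of many secreted Mmp proteins, was higher in both VEGFD arrays. Its signals were 6453 and 7751 in VEGFD arrays, against 4795 and 3947 in Apex arrays, with a log2 change of 0.70 ± 0.22 (adjusted p = 0.823). With any 1 array left out it was 0.56 to 0.84, and with arrays centred on their medians 0.82. The fibroblast and the smooth muscle sums, given above, were also higher in both VEGFD arrays, by narrow margins in VEGFD replicate 1. Every tested fibroblast marker taken singly overlapped between the groups, with log2 changes from -0.07 (Col3a1) to 0.82 (Col1a1). Within the smooth muscle and pericyte list, Acta2 had 4840 and 8802 in VEGFD arrays, against 3525 and 4096 in Apex arrays. Tagln had 1632 and 5553 in VEGFD arrays, against 454 and 746 in Apex arrays, so both were higher without overlap. Pdgfrb went the other way, with 2123 and 1268 in VEGFD arrays, against 2978 and 3479 in Apex arrays. Des was likewise lower in both VEGFD arrays, so the genes of the list did not share a direction. The part of both lists in the Timp1 and Adamts6 values was not tested.

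The upstream sequences of Timp1 and Timp4, the inhibitor genes whose groups did not overlap, are shown for the 150 bases before the RefSeq start (GRCm38.p6), with matches to the ETS core AGGAAG or its reverse complement CTTCCT in capitals.
Timp1, chrX:20870016-20870165, plus strand: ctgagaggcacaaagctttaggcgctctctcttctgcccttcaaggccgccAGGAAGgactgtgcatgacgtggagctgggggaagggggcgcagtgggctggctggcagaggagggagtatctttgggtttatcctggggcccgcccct
Timp4, chr6:115252206-115252355, minus strand: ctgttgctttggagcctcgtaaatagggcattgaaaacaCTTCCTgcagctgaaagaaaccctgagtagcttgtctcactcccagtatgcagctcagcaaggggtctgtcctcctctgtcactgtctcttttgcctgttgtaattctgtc
Each carried a single match in these 150 bases, beside the 29.5% of all windows of 250 bases with at least 1. The genes thus share these letters while their signals differed in opposite directions.

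Timp2, the partner of MMP14 in MMP2 activation, had signals of 8751 and 5366 in VEGFD arrays, against 7037 and 9778 in Apex arrays. VEGFD replicate 2 was the lowest array, and VEGFD replicate 1 lay between the Apex arrays. All 5 Timp2 probe sets above the filter had their lowest signal in VEGFD replicate 2, with gaps between the VEGFD replicates of 0.70 to 1.85 on the log2 scale. The log2 change was -0.27 ± 0.32, and 0.077 with VEGFD replicate 2 left out. The other Timp2 probe sets above the filter gave larger changes, -0.62 to -0.29. Timp3, the inhibitor that binds to the matrix, had 6488 and 3548 in VEGFD arrays, against 4974 and 3969 in Apex arrays. Its VEGFD arrays lay on either side of the Apex arrays. The log2 change of 0.11 ± 0.34 became 0.54 with VEGFD replicate 2 left out and -0.32 with VEGFD replicate 1 left out. Other Timp3 probe sets above the filter gave -0.06, 0.21 and 0.58, so its direction also depends on the probe set.

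**Figure D4:**
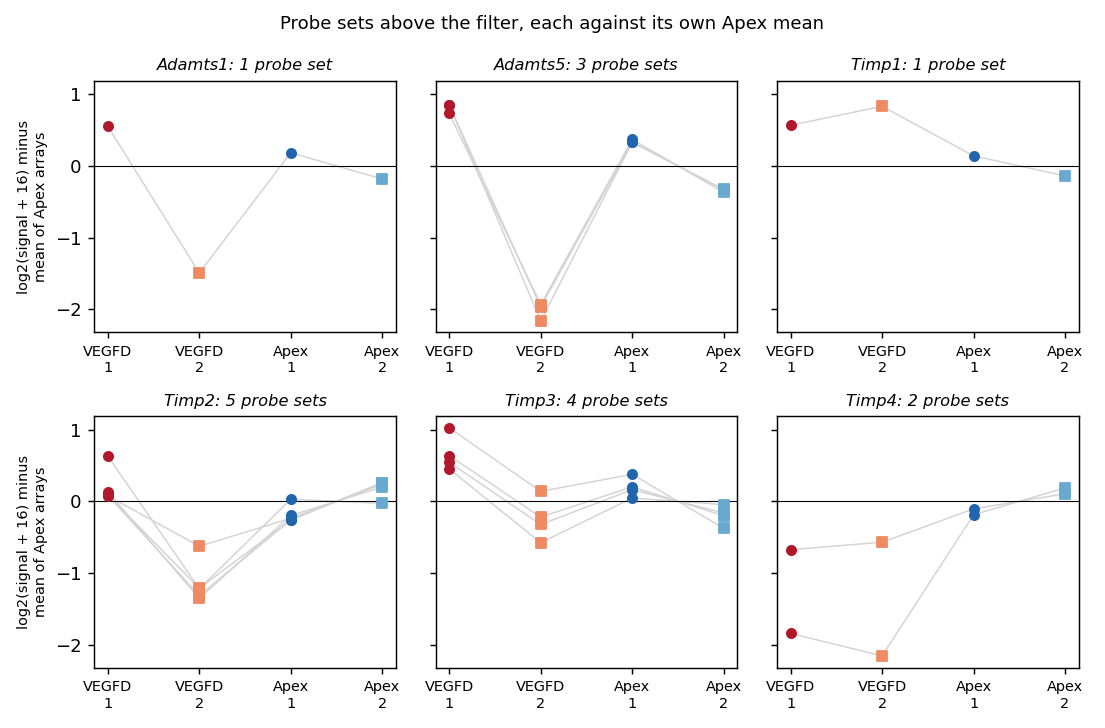
Log2(signal + 16) of each probe set above the filter for 6 members, minus the mean of its Apex arrays, with 1 point an array (VEGFD replicates 1 and 2, then Apex replicates 1 and 2) and a grey line joining the points of a probe set. All 3 Adamts5 and all 5 Timp2 probe sets are lowest in VEGFD replicate 2. Timp1 is higher in both VEGFD arrays, and both Timp4 probe sets are lower in both.

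**Figure D5:**
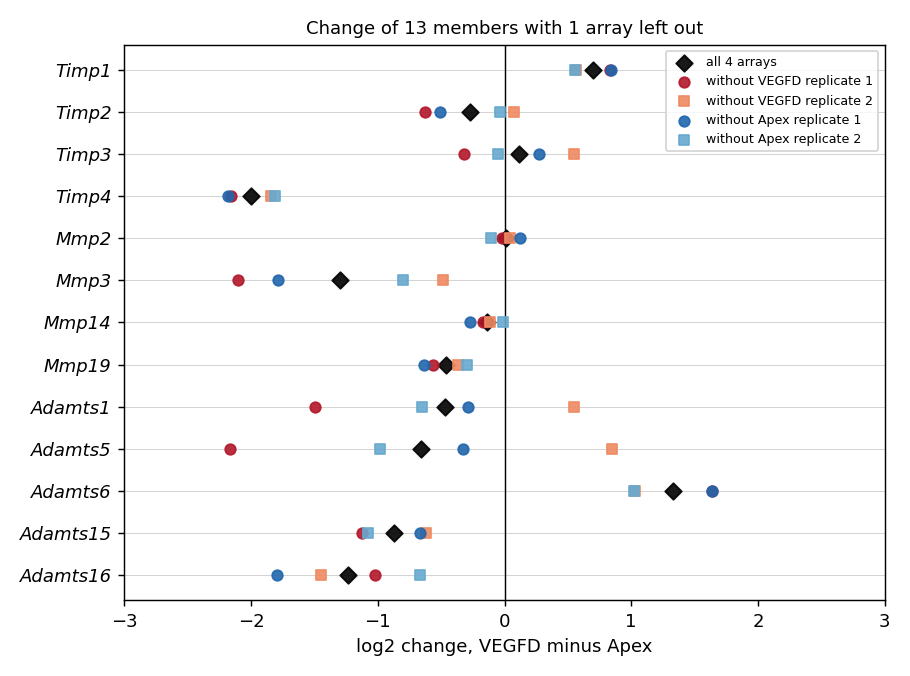
Log2 change (VEGFD minus Apex) of 13 members on all 4 arrays (black diamonds) and with each array left out in turn (coloured points). Timp1, Timp4, Adamts6, Adamts15, Adamts16, Mmp3, Mmp14 and Mmp19 keep their side of 0, while Adamts1, Adamts5, Timp2, Timp3 and Mmp2 cross it.

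Partners of the system were read from 4 lists. Of 13 tested activators and non-TIMP regulators, 0 passed the test, and the median log2 change was 0.04. Plaur, the urokinase receptor gene, had 116 and 579.5 in VEGFD arrays, against 100.7 and 93.8 in Apex arrays, a log2 change of 1.31 ± 0.70, and 0.22 with VEGFD replicate 2 left out. Rarres1, listed as a regulator, had 34.2 and 25.4 in VEGFD arrays, against 82.4 and 119.9 in Apex arrays, a log2 change of -1.34 ± 0.30 (adjusted p = 0.767).

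Of 15 tested ADAMTS-like and related metzincin genes, 0 passed, and the median was -0.001. Tll1, which encodes a tolloid-like procollagen proteinase, had 169 and 695 in VEGFD arrays, against 85.6 and 152 in Apex arrays. Its log2 change was 1.47 ± 0.67, and 0.50 with VEGFD replicate 2 left out. Adamtsl4, a microfibril-associated gene related to the ADAMTS family but without protease activity, had 241 and 100.5 in VEGFD arrays, against 380.1 and 374 in Apex arrays, a log2 change of -1.18 ± 0.41, and -0.61 with VEGFD replicate 2 left out.

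Of 14 tested matrix substrate genes, 0 passed and 0 were 2-fold apart without overlap, with a median of -0.05. The largest value was that of Col1a1, a fibrillar collagen gene, with 2034 and 3342 in VEGFD arrays, against 2491 and 862 in Apex arrays. Its log2 change was 0.82 ± 0.55, and 0.066 with Apex replicate 2 left out. Of 11 tested transcription factor genes that act on Mmp promoters, 0 passed and 0 were 2-fold apart without overlap. Etv5, an ETS factor gene, had the largest value, with 239.5 and 285 in VEGFD arrays, against 203 and 120.5 in Apex arrays, and its log2 change was 0.68 ± 0.32, or 0.34 with Apex replicate 2 left out.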

How the data were processed

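The authors deposited a linear intensity for every probe set of 4 Affymetrix mouse arrays, with no log taken and no pooling of arrays. The values show a common scaling: with 2% of probe sets trimmed at either end, the mean was 150.0 on all arrays. No label names the summary algorithm. Median signals per array were 23.8 to 27.0 in 3 arrays and 30.4 in Apex replicate 2. Precision is limited by the number of arrays, 2 a group, and p-values measure only the spread between these.

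Of 45101 probe sets, 64 were controls, 34945 had 1 gene symbol in the platform annotation, 932 several and 9160 none here. Of the single-symbol ones, 34741 were found in the GRCm38.p6 gene table with 0 symbols changed. Genes with a mean log2(signal + 16) at or above 5.37 were tested with limma 3.58.1 in R 4.3.3 (lmFit, eBayes with an intensity trend, two-sided, Benjamini-Hochberg over 11677 genes). The procedure was tested on simulated data with noise drawn independently for every gene and array. Such data hold no differences between whole arrays, so the simulation cannot show how the fit behaves under those seen here.

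Members, lists and tests were chosen with earlier results of these data known. All members were named, with up to 3 genes of each partner list, those with the largest change among the genes 2-fold apart without overlap, or else the 1 with the largest change. Marker genes were named beside a result whether or not they moved with it. Of the members, 23 had a RefSeq upstream sequence.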

Additional observations from a re-analysis of the deposited data

How the results depend on the processing

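Over the 13 alternatives, of which each member was tested in 11 to 13, 10 of the 23 tested members kept their sign in all that were run for them, among them Timp1, Timp4, Adamts6, Adamts15, Adamts16, Mmp3 and Mmp19. The signal has no stated background limit and no probe-level data were used, so another background correction was not run. Members 2-fold apart without overlap, 3 in all, were 1 with a pseudocount of 64 (1.96% of all genes in that setting). With a pseudocount of 1 they were 4 (5.58%), and with no filter 4 of 37 (3.06%). They were 0 of 12 with the stricter filter at a signal of 100 (3.39%) and 1 of 19 with averaged probe sets (2.84%). Leaving out 1 array gave 7 without VEGFD replicate 1 (11.5%) and 3 without VEGFD replicate 2 (4.92%). It gave 4 without Apex replicate 1 (8.26%) and 3 without Apex replicate 2 (3.79%). Genes past the threshold were 6 with the replicate number as a block, where 0 members passed, and 0 to 372 with 1 array left out, where Timp4, Adamts1 and Adamts5 passed without VEGFD replicate 1 and no member passed otherwise. Deviations of same-numbered arrays correlated at 0.20 across genes, and the labels do not say that the numbers pair. The members' median was -0.20 to 0.077 with 1 array left out. Signs turned for Adamts10 with median centring (0.11), quantile normalization (0.027) and averaged probe sets (0.25), for Mmp2 with quantile normalization (-0.0056), and with averaged probe sets for Adamts12 (-0.12), Adamts9 (-0.028) and Mmp14 (0.0077). With 1 array left out the values were -1.49 to 0.55 for Adamts1, -0.32 to 0.29 for Adamts10, -0.16 to 0.41 for Adamts12, -0.37 to 0.82 for Adamts4, -2.16 to 0.85 for Adamts5, -0.073 to 0.999 for Mmp11, -0.29 to 0.32 for Mmp16, -0.10 to 0.13 for Mmp2, -0.084 to 0.31 for Mmp23, -0.63 to 0.077 for Timp2 and -0.32 to 0.54 for Timp3. The cause of these turns was not tested.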
